A study of Mus musculus with 60 samples.

Results

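Subline CL6G52 was compared with subline CL6G45, both undifferentiated sublines of the mouse embryonal carcinoma subclone P19CL6. The arrays were chosen by their titles, CL6G52 biological replicates 2 to 5 against CL6G45 biological replicates 1 to 5. CL6G52 replicate 1 was left out because its measured profile lay with CL6G45, and its value is given beside those of the others. This makes 18 of the 60 samples of the series, 4 CL6G52 and 5 CL6G45 arrays on each of 2 oligonucleotide array types, MOE430A and MOE430B. Cells of all strains came from 1 source, a male C3H mouse embryo, per the labels. They carried no treatment in the labels and the medium was alpha-MEM containing 10% fetal calf serum. The labels do not say what the sublines were derived for, whether each is a clone, or whether the replicates are separate cultures. P-values therefore cover only how far these samples vary, which may be technical variation.

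P19 is a pluripotent line from a mouse teratocarcinoma, and P19CL6 is a subclone known for readily forming beating cardiac muscle. Some of the genes with the largest differences between the sublines belong to the stress responses of the endoplasmic reticulum (ER), the compartment in which secreted and membrane proteins fold. When unfolded proteins gather there, the sensors Ern1 (IRE1), Atf6 and Eif2ak3 (PERK) raise chaperones, degradation factors and the transcription factor Xbp1. Eif2ak3 and other kinases also slow translation and favour the factor Atf4, which drives amino acid genes and the factor Ddit3 (CHOP). This branch is called the integrated stress response.

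Values below are quantile-normalized signals on the log2 scale, and a difference is the mean of CL6G52 replicates 2 to 5 minus the mean of CL6G45, with the standard error (SE) of a limma fit. Since replicate 1 was left out after its profile was seen, these differences are a description. The adjusted p printed beside a gene comes from the fit of all 5 labelled replicates of each subline, in which no array was chosen by its profile. The words higher and lower are kept for genes that passed it at 0.05 unless another fit is named. A gene was called when it had an adjusted p under 0.05 and at least a 2-fold difference. The floor, below which a signal was not told from background, was 4.61 on MOE430A and 4.15 on MOE430B.

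Over the called genes, each array was placed on a scale from 0, the mean of CL6G45, to 1, the mean of CL6G52 replicates 2 to 5. The median place of CL6G52 replicate 1 was 0.076 on MOE430A and 0.123 on MOE430B. It lay nearer the CL6G45 mean in 194 of 217 called genes. Its correlation with the CL6G45 arrays ran from 0.960 to 0.966 on MOE430A, against 0.947 to 0.952 with the other CL6G52 arrays. On MOE430B the ranges were 0.820 to 0.832 and 0.798 to 0.830 and overlapped. The neighbouring subline CL6G36 differed from CL6G45 in 67 called genes on MOE430A, and replicate 1 lay nearer CL6G45 than CL6G36 in 62 of them. Over all probe sets its correlations with CL6G36, 0.956 to 0.961 on MOE430A and 0.800 to 0.825 on MOE430B, overlapped those with CL6G45. Placing the same arrays on that scale describes the choice of samples and tests nothing.

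**Figure D1:**
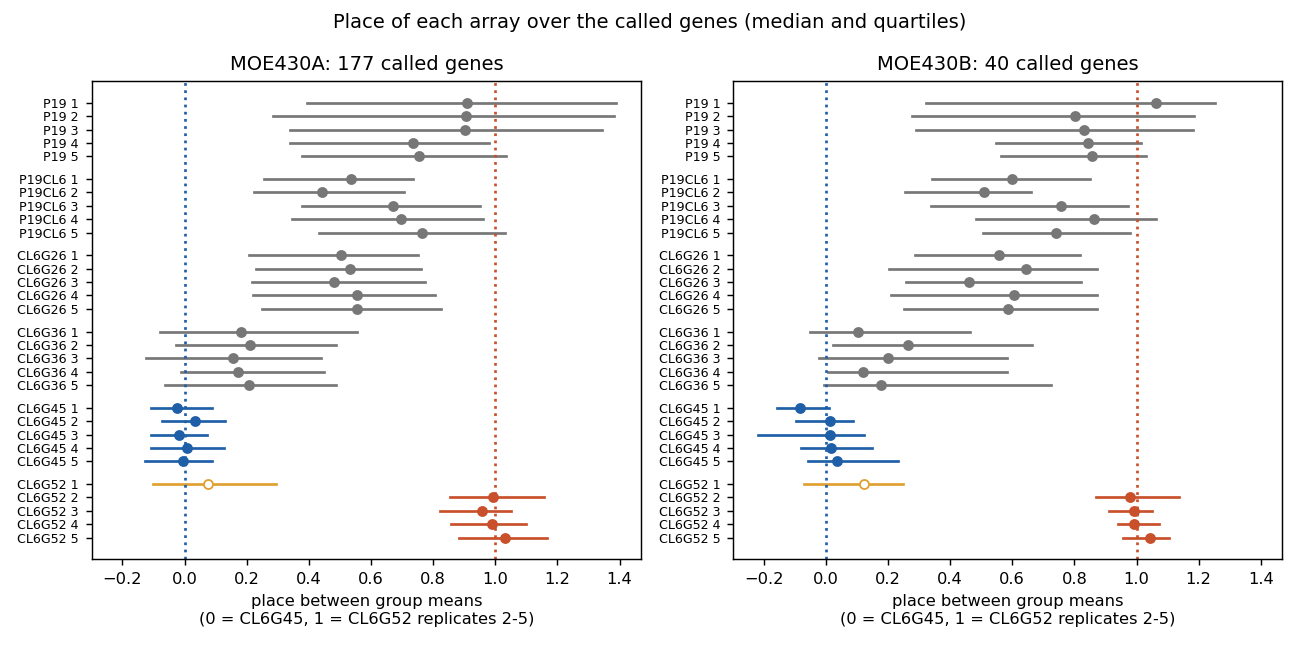
Each row is 1 array, and the x axis is its place between the mean of CL6G45 (0) and the mean of CL6G52 replicates 2 to 5 (1) over the called genes, with the median as a point and the quartiles as a line. The open symbol, CL6G52 replicate 1, lies at 0.076 on MOE430A and 0.123 on MOE430B, while the CL6G36 arrays lie between 0.156 and 0.211 on MOE430A and the P19CL6 arrays between 0.441 and 0.763.

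Median deposited signals of the 30 arrays of a type were 30.2 to 53.4 for MOE430A but 10.6 to 16.5 for MOE430B. Precision is limited by how many arrays a subline has. The ratio of the 3' to the 5' beta-actin control probe sets, a measure of RNA integrity, was 1.08 to 1.14 in CL6G52 replicates 2 to 5 and 1.11 to 1.20 in CL6G45 on MOE430A. On MOE430B it was 1.09 to 1.14 and 1.19 to 1.33, with no overlap, and its part in the results read there was not tested. The pluripotency factors Pou5f1, Sox2 and Lin28a, which are among the markers chosen for embryonal carcinoma cells, were bright in both sublines. Their CL6G45 means were 11.45 ± 0.04, 8.83 ± 0.15 and 10.90 ± 0.04 (SD, n = 5), and their CL6G52 means 11.18 ± 0.05, 8.72 ± 0.15 and 10.93 ± 0.03 (SD, n = 4).

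In CL6G52 replicates 2 to 5, 217 of 13181 genes tested were called, 1.65% of the total. Of these, 79 had the higher signal in CL6G52 (0.599%) and 138 the lower (1.05%). With all 5 replicates of each subline, 105 genes were called (0.797%), 37 higher and 68 lower in CL6G52. Of the 217 genes, 104 were also called in that fit and 179 had an adjusted p under 0.05 in it. By adjusted p alone, 2423 genes (18.4%) passed without replicate 1, with 1101 higher (8.35%) and 1322 lower (10.0%), and 1577 passed with it, 710 higher (5.39%) and 867 lower (6.58%). Most of those differences are small, and with the deposited scaling 538 passed. The arrays of the sublines did not overlap in 193 of the 217, which follows largely from calling these genes on the same arrays. Over all genes tested the share without overlap was 18.2%, 8.41% with CL6G52 above and 9.78% with CL6G52 below. In 97 of the 217 the mean of a subline lay under the floor, so that the fold of these genes is poorly known. The median difference over all genes was -0.01.

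**Figure D2:**
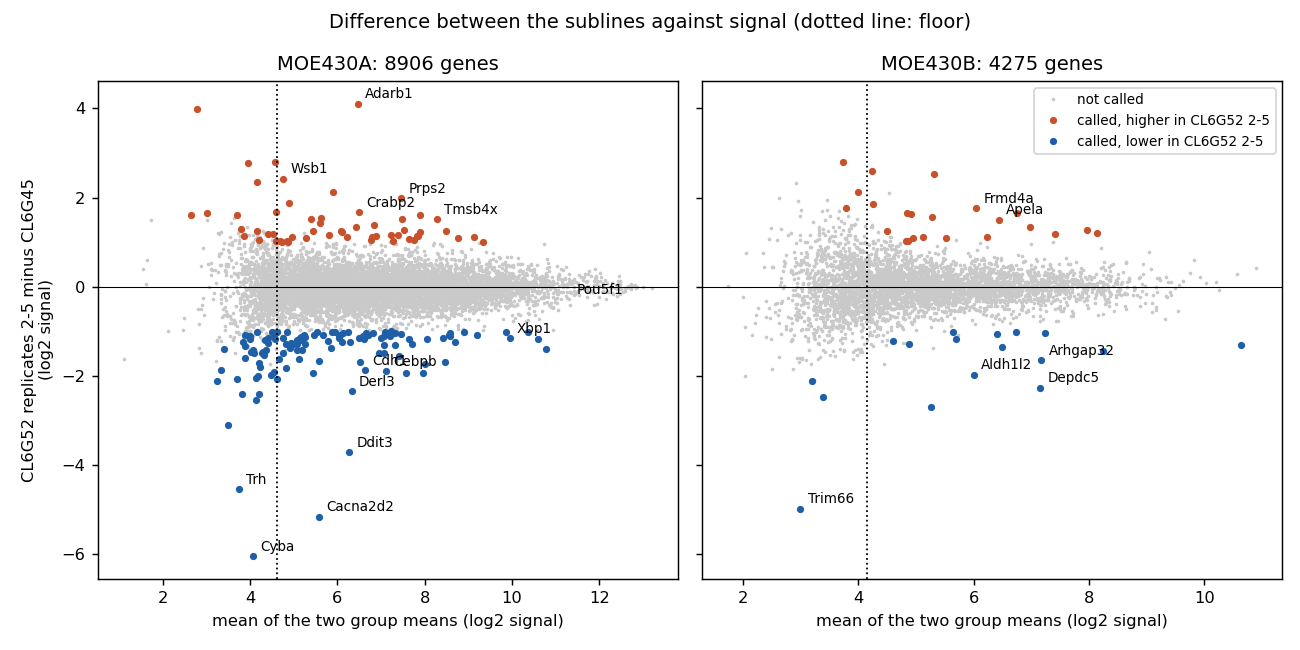
Each point is 1 gene, plotted by the mean of the CL6G45 and CL6G52 group means and by the difference of CL6G52 replicates 2 to 5 minus CL6G45, both in log2 signal, with the floor as a dotted line. Called genes are coloured, 79 higher and 138 lower in CL6G52, and the stress gene Ddit3 and the genes Cyba, Cacna2d2, Trh and Trim66 lie farthest below 0.

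The genes Arhgap32, Frmd4a, Crabp2 and Derl3 had been picked from this comparison as its markers, so that their values are a description. Derl3, a membrane factor of ER-associated degradation, read 7.32, 7.58, 7.37, 7.36 and 7.87 in CL6G45 and 4.75, 5.29, 5.09 and 5.51 in CL6G52 replicates 2 to 5, a difference of -2.34 ± 0.19 (SE). Replicate 1 read 6.95. Arhgap32, a GTPase-activating protein, read 8.0, 7.80, 7.94, 8.13 and 8.13 in CL6G45 and 6.22, 6.49, 6.33 and 6.35 in CL6G52. Its difference was -1.65 ± 0.12 (SE), and replicate 1 read 7.54. Another tested probe set of Arhgap32 had a difference of -0.81 with an adjusted p of 0.096 in the fit without replicate 1. Crabp2, which carries retinoic acid to its nuclear receptors, read 5.58, 6.08, 6.11, 5.08 and 5.47 in CL6G45 and 7.27, 7.37, 7.23 and 7.47 in CL6G52, a difference of 1.67 ± 0.16 (SE). Frmd4a, a FERM-domain scaffold of epithelial polarity, read 5.25, 4.91, 4.65, 5.39 and 5.64 against 6.69, 7.03, 7.02 and 6.99, a difference of 1.77 ± 0.19 (SE). In all 4 genes the arrays of the sublines stood apart, and replicate 1 lay closer to the CL6G45 mean, with 5.71 for Crabp2 and 5.57 for Frmd4a. The markers differ in where the other strains lie. For Arhgap32, CL6G45 stood apart from P19CL6 (6.28 ± 0.14, SD, n = 5), CL6G26 (6.10 ± 0.27) and CL6G36 (6.34 ± 0.12). For Frmd4a it was CL6G52 that stood apart from P19CL6 (5.32 ± 0.28), CL6G26 (4.96 ± 0.30) and CL6G36 (5.23 ± 0.15).

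Many genes of protein folding and degradation in the ER were lower in CL6G52. To show the element through which such genes are known to respond to ER stress, promoter stretches of members are printed here from RefSeq (build GRCm38.p6), 5′ to 3′ along the gene. The ER stress response element, CCAAT and CCACG with 9 bases of any kind between them, is bound by NF-Y together with Atf6 or Xbp1. Capitals mark its fixed bases, or their reverse complement where the element lies on the other strand. The stretches lie at chr10:75893222-75893280 (Derl3), chr15:88819500-88819558 (Creld2), chr2:34772005-34772063 (Hspa5), chr19:6046512-6046570 (Syvn1) and chr12:17266471-17266529 (Pdia6), all on the plus strand.
Derl3: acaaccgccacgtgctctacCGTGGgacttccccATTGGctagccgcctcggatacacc
Creld2: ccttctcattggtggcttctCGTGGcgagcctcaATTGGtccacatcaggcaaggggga
Hspa5: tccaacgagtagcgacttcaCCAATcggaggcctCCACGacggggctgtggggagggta
Syvn1: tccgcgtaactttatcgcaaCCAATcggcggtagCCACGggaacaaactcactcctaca
Pdia6: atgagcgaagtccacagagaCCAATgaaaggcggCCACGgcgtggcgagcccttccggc
On both strands, the element was found in 37 of 27025 promoters (0.137%), each covering 250 bases before to 50 after a gene's start. Of the ER chaperone list, 8 of 19 promoters given held it (42.1%), and of the degradation list 2 of 13 (15.4%). A match is a description of letters and shows no binding.

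Of 22 chaperones and folding enzymes tested, 14 were lower and 2 higher at an adjusted p under 0.05 without replicate 1, and 13 and 1 with it. Over all genes tested, 10.0% were lower and 8.35% higher in the former fit, and 6.58% and 5.39% in the latter. The counts of the lists further below are to be read beside the same shares. The median difference of the chaperone list was -0.42, and 7 and 1 passed with the deposited scaling. Hspa5 (BiP), the main ER chaperone, read 12.09, 12.05, 12.12, 12.10 and 12.14 in CL6G45 and 11.65, 11.79, 11.66 and 11.62 in CL6G52, a difference of -0.42 ± 0.06 (SE; adjusted p = 0.0212 over 5 against 5). Replicate 1 read 12.26, above every CL6G45 array. Dnajb9, a co-chaperone of Hspa5, read 7.71 to 7.97 in CL6G45 and 6.69 to 6.94 in CL6G52, a difference of -1.05 ± 0.08 (adjusted p = 0.0002). Creld2, an ER-resident disulfide isomerase, differed by -0.87 ± 0.07 (adjusted p = 0.00102) and Ero1a, an oxidase that drives disulfide formation, by -0.88 ± 0.08 (adjusted p = 0.000314). The related oxidase Ero1b differed by -1.02 ± 0.16 (adjusted p = 0.0103), and lost its 2-fold call without CL6G52 replicate 5 or without CL6G45 replicate 1 or 5. Its call was also lost with CL6G52 replicate 1 included and with the mean of its probe sets. Another tested probe set of Ero1b differed by -0.17 and did not pass without replicate 1 (adjusted p = 0.643). Not every member moved this way. Pdia3, an isomerase for glycoproteins, was higher in CL6G52, at 11.12, 11.19, 11.07 and 11.03 against 10.42 to 10.63, a difference of 0.61 ± 0.07 (adjusted p = 0.00574). Pdia6 and Hsp90b1, both with the element in their promoter, differed by -0.14 ± 0.08 and -0.18 ± 0.11 and did not pass in either fit.

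Among 17 genes of ER-associated degradation, the route that returns misfolded proteins to the cytosol, 9 were lower and 1 higher without replicate 1, and 8 and 1 with it, with a median of -0.41. These counts include the marker Derl3. Herpud1, which organises the retrotranslocation complex, read 8.94, 8.82, 9.20, 8.65 and 9.06 in CL6G45 and 6.86, 7.10, 6.90 and 7.15 in CL6G52, a difference of -1.93 ± 0.14 (SE; adjusted p = 0.00688). Replicate 1 read 9.66, the highest of the 10 arrays. The ubiquitin ligase Syvn1 (adjusted p = 0.00127) differed by -0.66 ± 0.08, and the selenoproteins Selenos and Selenok, which sit in the same complex, by -0.59 ± 0.06 and -0.68 ± 0.09. The conjugating enzyme Ube2j1 was the member that was higher, by 0.51 ± 0.11 (adjusted p = 0.0184). Of 11 sensors and transcription factors, 6 were lower and 0 higher without replicate 1, and 5 and 0 with it, with a median of -0.45. Xbp1 read 10.48 to 10.60 in CL6G45 and 9.30 to 9.49 in CL6G52, a difference of -1.16 ± 0.07 (adjusted p = 0.000233), and 10.47 in replicate 1. Eif2ak3 and Atf6 differed by -0.55 ± 0.10 (adjusted p = 0.00464) and -0.56 ± 0.13 (adjusted p = 0.00698). Ern1, the sensor that splices Xbp1 mRNA, differed by 0.18 ± 0.19 (adjusted p = 0.859). Arrays of this kind do not separate spliced from unspliced Xbp1. With the deposited scaling 1 of the 11 passed.

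The integrated stress response list showed the largest median difference of the lists examined, -1.20 over 14 genes. Of these, 12 were lower and 0 higher in both fits, 10 were lower with the deposited scaling, and 8 were called lower without replicate 1. Over all genes tested, 1.05% were called lower without replicate 1. Ddit3, the pro-apoptotic factor CHOP, read 8.39, 7.97, 8.29, 8.07 and 7.88 in CL6G45 and 2.62, 5.06, 4.88 and 5.07 in CL6G52. Replicate 2 was under the floor and the lowest of the 4, and with signals raised to the floor the difference was -3.21 instead of -3.71 ± 0.35 (SE; adjusted p = 0.000721). Replicate 1 read 8.01, within the CL6G45 range. Trib3, a pseudokinase induced by Ddit3, read 8.42, 8.62, 8.81, 8.43 and 8.38 against 6.67, 6.73, 6.50 and 6.49, a difference of -1.93 ± 0.10 (adjusted p = 0.000204). Cebpb, a partner of Ddit3 and Atf4 in binding DNA, read 7.93 to 8.21 against 5.68, 6.04, 6.44 and 6.44, a difference of -1.90 ± 0.14 (adjusted p = 0.000113). The other probe set of each gene was also lower in the fit without replicate 1. Atf4 itself, which is controlled mostly at translation, differed by -0.72 ± 0.07 (adjusted p = 0.000254), from 10.90 to 11.08 in CL6G45 to 10.06 to 10.41 in CL6G52. The phosphatase subunit Ppp1r15a (GADD34), which ends the response, differed by -1.31 ± 0.11 (adjusted p = 0.000254). Atf5 and Atf3, factors downstream of Atf4, differed by -1.17 ± 0.10 and -1.24 ± 0.16, and Chac1, which degrades glutathione, by -1.24 ± 0.16. The translation inhibitor Eif4ebp1 differed by -0.23 ± 0.12 and did not pass (adjusted p = 0.768). Without replicate 1, another of its probe sets was lower (-0.41, adjusted p = 8.48e-05) and a further one did not pass (-0.38, adjusted p = 0.0598).

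**Figure D3:**
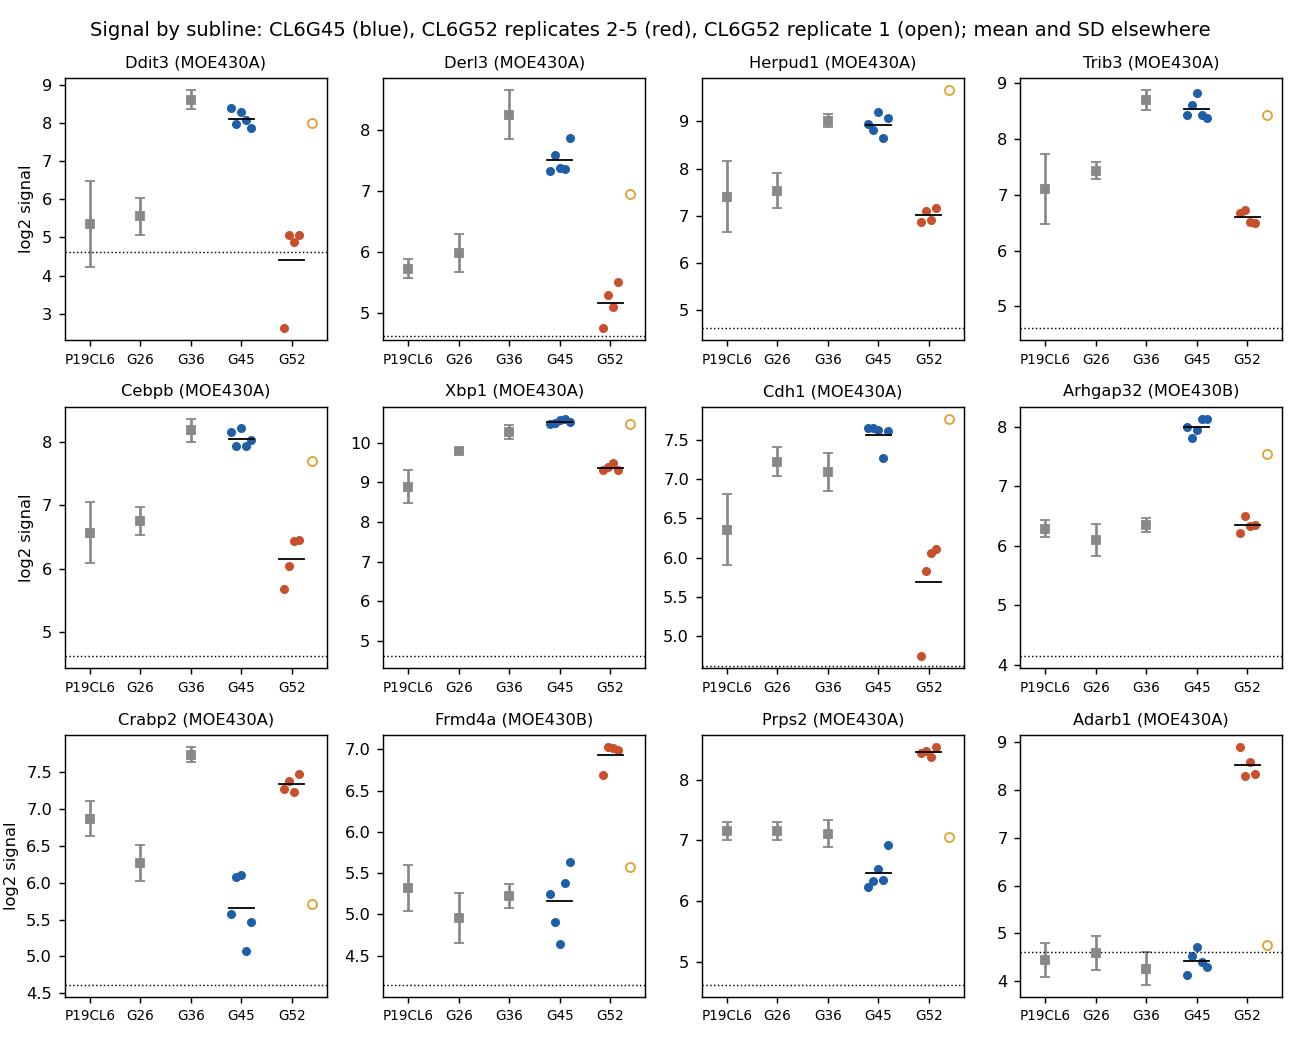
Log2 signal of 12 genes, with each CL6G45 array in blue, CL6G52 replicates 2 to 5 in red and CL6G52 replicate 1 as an open symbol, their means as bars, mean ± SD over 5 arrays of P19CL6, CL6G26 and CL6G36 in grey, and the floor as a dotted line. For Ddit3, Herpud1, Trib3 and Cebpb, CL6G36 lies with CL6G45 and the open symbol, while CL6G52 lies nearest P19CL6 and CL6G26, and for Adarb1 and Frmd4a the 4 red points stand above all other groups.

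The promoters of Atf3, Chac1, Herpud1 and Vldlr hold the composite element that C/EBP and ATF factors bind, TGATGNAAN, searched on both strands, and are shown because their genes were lower together. Capitals mark the fixed bases, here all as the reverse complement. The stretches lie at chr1:191183416-191183464 on the minus strand (Atf3) and, on the plus strand, at chr2:119351028-119351076 (Chac1), chr8:94386296-94386344 (Herpud1) and chr19:27216799-27216847 (Vldlr).
Atf3: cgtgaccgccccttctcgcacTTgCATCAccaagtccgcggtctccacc
Chac1: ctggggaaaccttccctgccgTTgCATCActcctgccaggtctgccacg
Herpud1: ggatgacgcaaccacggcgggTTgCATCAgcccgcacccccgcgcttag
Vldlr: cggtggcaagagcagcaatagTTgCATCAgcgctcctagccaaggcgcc
The element was found in 1215 of 27025 promoters (4.5%) and in 300 of 10620 promoters of genes tested (2.82%). It was found in 9 of 115 promoters of genes called lower (7.83%), in 1 of 62 of genes called higher, and in 5 of 15 of the integrated stress response list (33.3%). The ER stress response element was found in 2 of 115 promoters of genes called lower (1.74%) and 0 of 62 of genes called higher, against 0.169% of genes tested. A further motif searched, TGACGTGG, the core of an unfolded protein response element, was found in 0 of 115 and 0 of 62, against 1.1% of genes tested. None of the stretches printed held a match to another of the motifs searched. Vldlr, a lipoprotein receptor, read 6.17 to 6.66 in CL6G45 and 4.86 to 5.40 in CL6G52, a difference of -1.22 ± 0.16 (adjusted p = 0.00212).

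Amino acid genes, many of them known targets of Atf4, were lower in CL6G52 in the same direction. Of 18 genes of amino acid synthesis and transport, 16 were lower and 0 higher without replicate 1, and 13 and 0 with it, with a median of -0.53. Aldh1l2, a mitochondrial folate enzyme, read 7.01, 6.83, 6.93, 7.10 and 7.11 in CL6G45 and 5.03, 4.92, 4.95 and 5.17 in CL6G52, a difference of -1.98 ± 0.14 (SE; adjusted p = 0.00087). Replicate 1 read 6.83, equal to the lowest CL6G45 array at this precision. Shmt2, which makes glycine and one-carbon units from serine, differed by -1.01 ± 0.07 (adjusted p = 0.000359). Its 2-fold call was lost without CL6G52 replicate 3, without CL6G45 replicate 5 and with the deposited scaling. The call of Shmt2 was also lost with CL6G52 replicate 1 included, with arrays centred on their median and with the mean of its probe sets. Without replicate 1, another of its probe sets was lower (-0.86), and those at -0.41 and -0.36 did not pass (adjusted p of 0.547 and 0.806). Slc7a11, the cystine transporter, read 5.42 to 5.91 against 4.38 to 4.98, with 1 of 4 CL6G52 arrays above the floor, a difference of -1.12 ± 0.18 (adjusted p = 0.0124). The neutral amino acid transporters Slc1a4 and Slc7a5 differed by -0.95 ± 0.09 and -0.77 ± 0.08. Asns, which makes asparagine, differed by -0.45 ± 0.07 (adjusted p = 0.00048) and the serine synthesis enzyme Phgdh by -0.32 ± 0.07 (adjusted p = 0.0429). Of 19 aminoacyl-tRNA synthetases, which charge tRNAs, 11 were lower and 0 higher without replicate 1, and 8 and 0 with it, with a median of -0.35. Sars differed most among those named, by -0.76 ± 0.05 (adjusted p = 0.00241), and Aars and Nars by -0.61 ± 0.08 and -0.41 ± 0.05. These lists depend on the scaling, since 9 of the amino acid genes and 3 of the synthetases passed with the deposited signals.

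Several of the largest decreases lie outside these lists. Depdc5, a subunit of the GATOR1 complex that restrains mTORC1, read 8.26, 8.29, 8.42, 8.24 and 8.23 in CL6G45 and 6.0, 6.07, 5.98 and 6.02 in CL6G52, a difference of -2.27 ± 0.11 (SE; adjusted p = 0.00172). Replicate 1 read 8.45, above every CL6G45 array. Of its 5 other tested probe sets, 1 was lower without replicate 1 (-1.07), and the mean over the probe sets was not called. Aldoc, a glycolytic aldolase, read 8.71 to 9.11 in CL6G45 and 7.09 to 7.21 in CL6G52, a difference of -1.74 ± 0.09 (adjusted p = 0.000808). Stc2, a secreted glycoprotein induced by ER stress, read 9.09 to 9.57 against 7.30 to 7.80, a difference of -1.69 ± 0.11 (adjusted p = 0.00143), and both of its other probe sets were lower without replicate 1. Ndrg2, a stress-responsive member of the N-myc downstream-regulated family, read 7.11 to 7.52 against 5.32 to 5.98, a difference of -1.69 ± 0.17 (adjusted p = 0.000718).

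Metabolic genes were lower by smaller amounts. Of 22 genes of glycolysis and the hypoxia response, 15 were lower and 0 higher without replicate 1, and 10 and 0 with it, with a median of -0.36. Bnip3, a mitochondrial factor induced by low oxygen, read 11.33 to 11.61 in CL6G45 and 10.37 to 10.50 in CL6G52, a difference of -0.97 ± 0.05 (adjusted p = 0.000565). The oxygen sensor Egln1 differed by -0.85 ± 0.10 (adjusted p = 0.00465), Pdk1, which holds pyruvate from the mitochondria, by -0.67 ± 0.09, and the phosphofructokinase Pfkl by -0.63 ± 0.08. Pfkp, another phosphofructokinase, differed by -1.04 ± 0.13, and its call was lost without CL6G45 replicate 5 and with CL6G52 replicate 1 included. Of 21 genes of cholesterol and fatty acid synthesis, 17 were lower and 1 higher without replicate 1, and 10 and 1 with it, with a median of -0.47. The sterol enzymes Cyp51, Fdft1, Mvd and Fdps differed by -0.89 ± 0.10, -0.83 ± 0.09, -0.82 ± 0.11 and -0.74 ± 0.07. The fatty acid synthase Fasn was the member that was higher, by 0.30 ± 0.06 (adjusted p = 0.00401). With the deposited scaling, 5 genes of the first list and 6 of the second were lower.

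The next groups, clock genes, small nucleolar RNA hosts and metallothioneins, were put together after their values were seen. Of 17 circadian clock genes, 9 were lower and 0 higher without replicate 1, and 6 and 0 with it. Dbp, a clock output factor, read 7.51 to 7.92 in CL6G45 and 6.05 to 6.43 in CL6G52, a difference of -1.49 ± 0.11 (adjusted p = 0.000657). The repressors Nr1d2 and Cry1 differed by -1.30 ± 0.13 and -1.16 ± 0.19, and Ciart by -1.04 ± 0.10. Another probe set of Nr1d2 did not pass, and the mean of its probe sets was not called. The hour at which cells were collected was not in the labels. Of 12 host genes of small nucleolar RNAs, 5 were lower and 1 higher in both fits. Snhg12, Snhg5 and Gas5 differed by -1.44 ± 0.08, -1.08 ± 0.09 and -1.02 ± 0.06, while Snhg3 read 5.99 to 6.65 in CL6G45 and 7.43 to 7.97 in CL6G52, a difference of 1.34 ± 0.14 (adjusted p = 0.00777). Another tested probe set of Gas5 was higher without replicate 1 (0.70), and the call of Gas5 was lost without CL6G52 replicate 4 and with the deposited scaling. It was also lost with CL6G52 replicate 1 included, with arrays centred on their median and with the mean of its probe sets. The metal-binding Mt2 read 11.44 to 11.63 in CL6G45 and 9.90 to 10.29 in CL6G52, a difference of -1.40 ± 0.10 (adjusted p = 0.00395). Mt1, its neighbour in the same cluster, differed by -1.18 ± 0.12 (adjusted p = 0.000825).

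Some genes were read above the floor in every array of 1 subline and in no array of the other. This held for 19 called genes seen in CL6G45 and for 11 seen in CL6G52 replicates 2 to 5, and their folds are lower bounds, the brighter mean against the floor. The 5 CL6G45 arrays could meet the filter of 5 of 30 arrays by themselves, while the 4 CL6G52 arrays could not. The counts are therefore not comparable, and the share of such genes over all genes tested was not counted. Cyba, the p22phox subunit of NADPH oxidases, read 7.36, 6.90, 7.14, 7.11 and 6.90 in CL6G45 and 0.47, 2.78, 0.54 and 0.36 in CL6G52, at least 5.53-fold lower (adjusted p = 0.000515). Replicate 1 read 7.38. Cacna2d2, a calcium channel subunit, read 7.92 to 8.31 in CL6G45 and 2.30 to 4.40 in CL6G52, at least 11.6-fold lower (adjusted p = 0.000981). Its level in P19CL6 (4.47 ± 1.05), CL6G26 (4.93 ± 0.92) and CL6G36 (3.76 ± 0.97) was near the floor, so that CL6G45 and CL6G52 replicate 1 (8.32) stood apart from the other strains. Trh, the thyrotropin-releasing hormone precursor, read 5.90 to 6.23 against 1.05 to 2.08, at least 2.65-fold lower (adjusted p = 0.00036). Trim66, a chromatin-binding protein, read 5.32 to 5.70 against 0.00 to 1.23, at least 2.53-fold lower (adjusted p = 0.00131). Esrp1, which directs epithelial splicing, and Rnf157, a ubiquitin ligase, were at least 1.71-fold and 1.38-fold lower, and neither kept a 2-fold call with signals raised to the floor. The other probe sets of Rnf157 differed by -0.11 and -0.42 and did not pass (adjusted p of 0.93 and 0.712 without replicate 1), and the stricter filter, under which Rnf157 was read from the former, ended its call.

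In the other direction, Wsb1, a ubiquitin ligase adaptor, read 3.36 to 3.85 in CL6G45 and 5.76 to 6.12 in CL6G52, at least 2.55-fold higher (adjusted p = 0.0036). Replicate 1 read 2.90, below every CL6G45 array. CL6G45 was the subline apart here, since P19CL6, CL6G26 and CL6G36 read 5.54 ± 0.27, 5.37 ± 0.32 and 5.43 ± 0.25. Pdzrn3, a PDZ and RING domain ubiquitin ligase, read 2.51 to 3.97 against 5.69 to 6.42, at least 2.57-fold higher (adjusted p = 0.000214). Mme, the membrane peptidase neprilysin, was at least 2.32-fold higher (adjusted p = 0.00421). The secreted C1q-like protein C1ql2, the giant scaffold Ahnak and the chaperone clusterin (Clu) were at least 1.98-fold, 1.77-fold and 1.63-fold higher, and none of the 3 kept a 2-fold call with signals raised to the floor. Clu was higher in each of its 3 other probe sets as well without replicate 1. Adarb1, an RNA-editing adenosine deaminase with 1 CL6G45 array above the floor, was named after its values were seen. It read 4.13, 4.53, 4.72, 4.39 and 4.30 in CL6G45 and 8.89, 8.29, 8.58 and 8.33 in CL6G52, a difference of 4.11 ± 0.20, or 3.89 with signals raised to the floor (adjusted p = 0.00014). Replicate 1 read 4.75, and the means of P19CL6, CL6G26 and CL6G36 lay between 4.27 and 4.59.

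Of the genes above the floor on all 9 arrays, Prps2, which makes the ribose precursor of nucleotides, had the largest increase. It read 6.23, 6.32, 6.53, 6.34 and 6.92 in CL6G45 and 8.44, 8.47, 8.38 and 8.54 in CL6G52, a difference of 1.99 ± 0.13 (SE; adjusted p = 4.75e-05). Its 2 other probe sets differed by 2.68 and 2.52. Replicate 1 read 7.05, above the CL6G45 arrays and below the others of its subline. Tmsb4x, which sequesters actin monomers, read 7.36 to 7.71 against 8.94 to 9.13, a difference of 1.51 ± 0.08 (adjusted p = 0.000605). S100a10, a partner of annexin A2, read 6.78 to 7.31 against 8.57 to 8.91, a difference of 1.61 ± 0.12 (adjusted p = 0.000171), while Anxa2 itself, named after its values were seen, was lower, with a difference of -1.14 ± 0.12 (adjusted p = 0.000583). Gpaa1, a subunit of the enzyme that attaches GPI anchors, differed by 1.53 ± 0.24 (adjusted p = 0.000242), but the mean of its probe sets was not called. Apela, a secreted peptide ligand of the apelin receptor, read 5.39 to 5.87 against 7.08 to 7.34, a difference of 1.5 ± 0.15 (adjusted p = 0.00494). Nrep, a small neuronal regeneration protein, differed by 1.38 ± 0.10 (adjusted p = 4.75e-05), and its other probe set by 1.16.

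Targets of the tumour suppressor p53 were the list with the most members higher for its size. Of 14 tested, 9 were higher and 2 lower without replicate 1, and 8 and 2 with it, with a median of 0.64, and 7 and 1 passed with the deposited scaling. Ccng1, a cyclin that p53 induces, read 8.40 to 8.77 in CL6G45 and 9.61 to 9.81 in CL6G52, a difference of 1.12 ± 0.09 (adjusted p = 0.000534), and its other probe sets were also higher in the fit without replicate 1. Phlda3, which restrains Akt, read 7.0 to 7.55 against 8.45 to 8.62, a difference of 1.23 ± 0.11 (adjusted p = 0.00146). Trp53inp1, which promotes p53-dependent apoptosis, differed by 1.27 ± 0.25 (adjusted p = 0.0439). The cell cycle inhibitor Cdkn1a (p21) differed by 0.95 ± 0.15 (adjusted p = 0.011), Ei24 by 0.77 ± 0.07 and Zmat3 by 0.65 ± 0.10. The members that were lower were Bbc3 (-0.88 ± 0.16, adjusted p = 0.00649), which triggers apoptosis, and Sesn2 (-0.54 ± 0.10, adjusted p = 0.00161), which inhibits mTORC1 and is also induced by Atf4. Of 27 cell cycle genes, 8 were higher and 2 lower without replicate 1, and 7 and 3 with it. With the deposited scaling 2 were higher and 1 lower. Over all genes tested, 8.35% were higher and 10.0% lower without replicate 1, and 5.39% and 6.58% with it. Cdk1 and Ccna2, which drive mitosis and S phase, differed by 0.47 ± 0.06 and 0.42 ± 0.07, and the inhibitor Cdkn1b (p27) by -0.86 ± 0.13 (adjusted p = 0.000999).

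Some actin-linked genes and basement membrane collagens were higher in CL6G52. Of 14 muscle contractile genes, 6 were higher and 0 lower in both fits, and 4 with the deposited scaling. Tagln (transgelin), which binds actin in smooth muscle, read 4.10 to 5.31 in CL6G45 and 6.18 to 6.54 in CL6G52, a difference of 1.54 ± 0.25 (adjusted p = 0.00413). The tropomyosin Tpm1 differed by 0.77 ± 0.07 (adjusted p = 9.58e-05), the calponin Cnn2 by 0.45 ± 0.07 and the myosin light chain Myl9 by 1.12 ± 0.24 (adjusted p = 0.00369). For Myl9, 1 of 5 CL6G45 arrays lay above the floor, and its call was lost without CL6G45 replicate 1 and with signals raised to the floor. Acta2 and the cardiac actin Actc1 differed by 0.22 ± 0.13 and -0.09 ± 0.23 and did not pass. The 6 members are found in many cell types, and a link of their differences to cardiac fate was not tested. None of 10 cardiac transcription factors passed without replicate 1. With it, 1 of them was lower. Col4a2 and Col4a1, the chains of basement membrane collagen, differed by 1.35 ± 0.17 (adjusted p = 0.0107) and 0.97 ± 0.09 (adjusted p = 0.00187). They belong to a list of primitive and parietal endoderm markers, of which 5 of 12 were higher and 2 lower without replicate 1, and 5 and 1 with it. The other members that were higher were Sparc (0.52 ± 0.07), Dab2 (0.94 ± 0.15) and Lamb1 (0.47 ± 0.11), while Foxa2, an endoderm factor, was lower (-0.56 ± 0.15, adjusted p = 0.0199).

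The cultures could hold other cell types. In CL6G52 replicates 2 to 5 the summed signals of endoderm, neural and fibroblast markers lay above those of CL6G45. The summed linear signal of 18 endoderm markers was 2044 to 2346 in CL6G45 and 2644 to 2793 in CL6G52 replicates 2 to 5, and it was 2214 in replicate 1. Afp, Lama1, Plat, Sox7, Thbd and Ttr lay under the floor on all 9 arrays. For 18 neural markers the sums were 1456 to 1571 and 1687 to 1769, and 1548 in replicate 1, with Sox1, Neurog1, Neurog2, Map2 and Hoxb1 under the floor. For 18 fibroblast and mesenchyme markers they were 2102 to 2387 and 2545 to 2741, and replicate 1, at 2618, lay with the other CL6G52 arrays here, with Col1a1, Col3a1, Dcn, Lum, Postn, Pdgfrb, Snai2, Twist1 and S100a4 under the floor. The sums of trophoblast markers, 637 to 734 and 566 to 652, and of blood and macrophage markers, 214 to 312 and 240 to 261, overlapped. Replicate 1 read 824 for the trophoblast markers, above all 9 other arrays, and 294 for the blood markers. Of those tested gene by gene without replicate 1, 2 of 13 neural and 3 of 10 fibroblast markers were higher. The other 11 neural markers did not pass. In the same fit 1 fibroblast marker and 2 of 7 trophoblast markers were lower, and 0 of 7 blood markers passed. Over all genes tested, 8.35% were higher and 10.0% lower in that fit. In bulk samples more cells of a type and more RNA per cell cannot be told apart, and the part of these cells in the results was not tested.

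**Figure D4:**
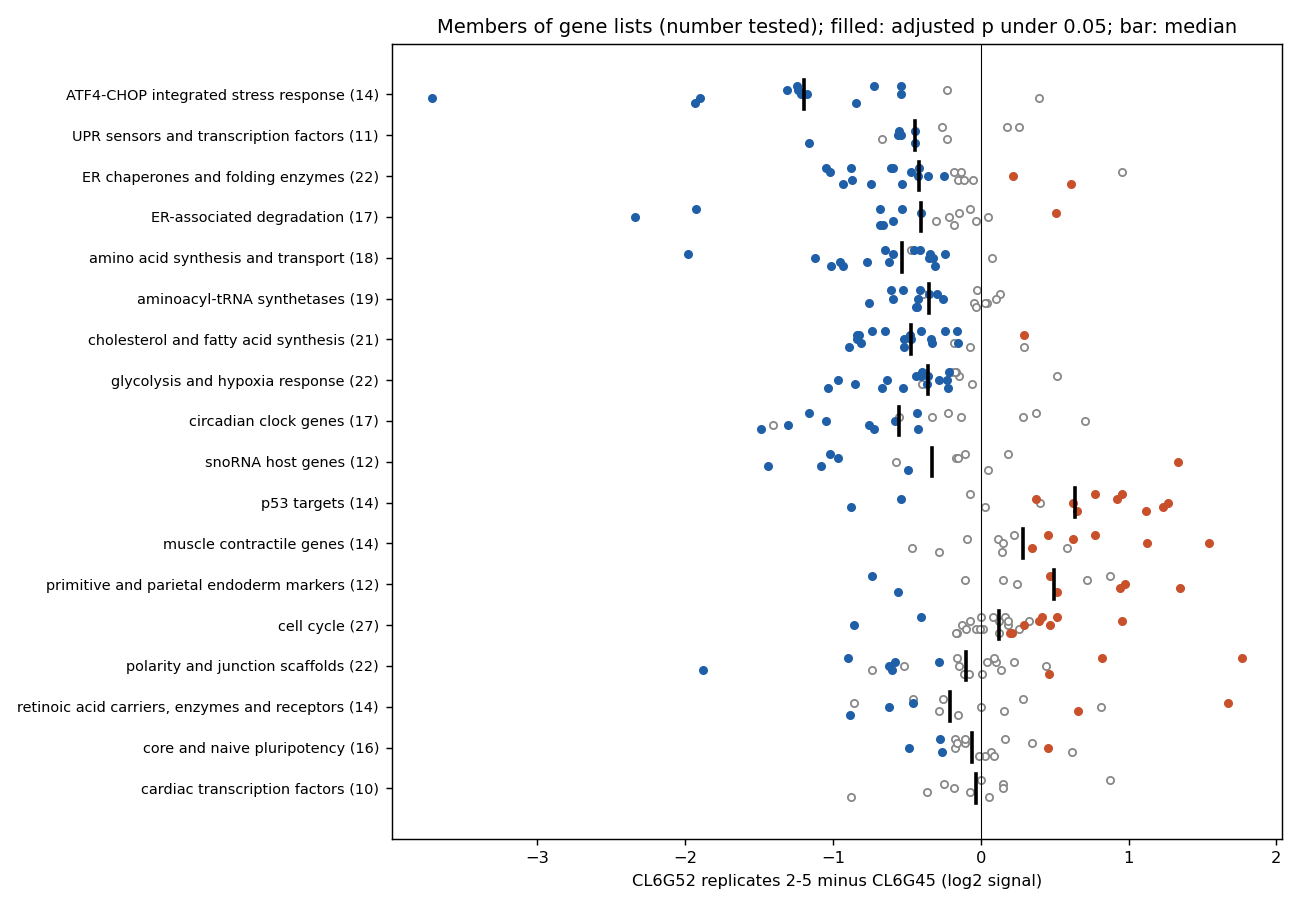
Each point is 1 gene of the list named at left, with the number tested in parentheses, plotted by the difference of CL6G52 replicates 2 to 5 minus CL6G45 in log2 signal. Filled points had an adjusted p under 0.05 without replicate 1 and the bar is the list's median, which runs from -1.20 for the integrated stress response to 0.64 for p53 targets, against -0.01 over all genes tested.

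Genes of epithelial contact did not move as a block. Of 22 polarity and junction scaffolds, 6 were lower and 3 higher in both fits, the marker Frmd4a included. Over all genes tested, 10.0% were lower and 8.35% higher without replicate 1, and 6.58% and 5.39% with it. E-cadherin (Cdh1), which joins epithelial cells, read 7.65, 7.65, 7.63, 7.28 and 7.61 in CL6G45 and 4.74, 5.83, 6.06 and 6.12 in CL6G52, a difference of -1.88 ± 0.20 (SE; adjusted p = 0.00244). Replicate 1 read 7.77, above every CL6G45 array. The claudin Cldn6 differed by -0.90 ± 0.13 (adjusted p = 0.00566). N-cadherin (Cdh2) was higher, at 6.83 to 7.20 against 6.41 to 6.81, a difference of 0.46 ± 0.10 (adjusted p = 0.00237), and replicate 1, at 6.97, lay with the other CL6G52 arrays. The polarity protein Pard6g differed by 0.82 ± 0.11 (adjusted p = 0.00448).

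Beside Crabp2, other members of the retinoic acid list differed, in both directions. Of 14 genes, 2 were higher and 3 lower in both fits, Crabp2 included. Over all genes tested, 8.35% were higher and 10.0% lower without replicate 1, and 5.39% and 6.58% with it. Rdh10 and Rdh11, named as retinol dehydrogenases, lay on opposite sides, with 0.66 ± 0.12 (adjusted p = 0.00205) and -0.89 ± 0.10 (adjusted p = 0.000113). The receptors Rara and Rxrb differed by -0.62 ± 0.12 (adjusted p = 0.00561) and -0.46 ± 0.12 (adjusted p = 0.0212).

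Pluripotency genes differed little. Of 16 core and naive factors, 1 was higher and 3 lower without replicate 1, 0 and 2 with it, and 0 and 1 with the deposited scaling. Pou5f1 read 11.40 to 11.48 in CL6G45 and 11.13 to 11.24 in CL6G52, a difference of -0.28 ± 0.05 (adjusted p = 0.0171, and 0.331 without replicate 1 on the deposited scaling). Utf1, a chromatin factor of embryonal carcinoma cells, differed by -0.49 ± 0.09 (adjusted p = 0.0231). Nanog read 7.62 to 7.99 against 8.08 to 8.28, a difference of 0.45 ± 0.12 that passed without replicate 1 (adjusted p = 0.00934) and not with it (0.0547). Sox2 differed by -0.11 ± 0.12 (adjusted p = 0.555). Of 11 primed epiblast genes, 4 were lower and 0 higher without replicate 1, and 3 and 0 with it, among them Otx2 (-0.50 ± 0.06, adjusted p = 0.0011) and the methyltransferase Dnmt3b (-0.45 ± 0.06, adjusted p = 0.00382). With the deposited scaling 0 of the 11 passed.

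Of 17 primitive streak and mesendoderm genes, 3 were lower and 0 higher without replicate 1, and 2 and 0 with it. With the deposited scaling 1 was lower. Over all genes tested, 10.0% were lower and 8.35% higher without replicate 1. Gsc (goosecoid), a factor of the anterior streak, read 5.69, 5.61, 5.71, 5.96 and 5.64 in CL6G45 and 4.69, 4.12, 4.82 and 2.00 in CL6G52, with 2 of the 4 above the floor. Its difference was -1.81 ± 0.37, or -1.04 with signals raised to the floor (adjusted p = 0.0201). Eomes differed by -0.54 ± 0.11 (adjusted p = 0.0501). The counts of the signalling lists come from 5 against 5 arrays, where 5.39% of all genes tested were higher and 6.58% lower. Of 14 Nodal and activin genes, 2 were higher and 2 lower over 5 against 5, of 15 BMP genes 1 and 1, of 17 Wnt genes 1 and 0, and of 17 FGF genes 0 and 3. With the deposited scaling and without replicate 1, 0 Nodal and activin and 0 FGF genes passed. There, 1 BMP and 1 Wnt gene were higher and 0 lower. The Wnt antagonist Sfrp1 read 4.92 to 5.56 in CL6G45 and 6.13 to 6.59 in CL6G52, a difference of 1.16 ± 0.17 (adjusted p = 0.00224). Id1, a BMP target, differed by 0.86 ± 0.19 (adjusted p = 0.0159). Of 15 interferon and MHC genes, 2 were higher and 0 lower over 5 against 5, and of 21 imprinted genes 3 and 2, among them Mest with a difference of 0.66 ± 0.05 (adjusted p = 0.00239). With the deposited scaling and without replicate 1, 0 of the 15 passed, and 2 imprinted genes were higher and 0 lower.

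The levels in the other strains place the differences. The P19CL6 mean lay nearer CL6G52 than CL6G45 in 138 of the 217 called genes, in 61 of the 79 higher and in 77 of the 138 lower in CL6G52. For Ddit3 it was 5.35 ± 1.13 (SD, n = 5) and for Trib3 7.10 ± 0.63, between the sublines and nearer CL6G52, with a wide spread over the P19CL6 arrays. CL6G36 read 8.62 ± 0.24 and 8.69 ± 0.18 in these genes, beside CL6G45. Derl3 was brightest in CL6G36, at 8.25 ± 0.40, and the mean of Crabp2 in CL6G36 (7.74 ± 0.10) lay above that in CL6G52 (7.34 ± 0.11, n = 4). Prps2, at 7.16 ± 0.15 in P19CL6, lay between the sublines.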

How the data were processed

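RNA of 6 strains was read on MOE430A and MOE430B arrays, 30 arrays of each type, after two-cycle biotin labelling per the labels. The authors deposited linear signal intensities, 1 per probe set, made with GCOS per the submitters' processing notes. Their scaling is not stated in the labels, and raw scans were not used here. The 64 control probe sets of each type were removed, the arrays of a type were quantile normalized, values below 1 were raised to 1 before taking log2. Probe sets above the floor on at least 5 of 30 arrays were tested, 15068 on MOE430A and 12131 on MOE430B. The floor was the 40th percentile of signal on MOE430A and the 60th on MOE430B, and is a choice made here. Deposited platform annotation gave 20380 and 14661 probe sets 1 gene symbol, and a gene was read from its brightest tested probe set, MOE430A first. Probe sets with names ending in _x_at were used only where the gene had no other tested on that array type. limma 3.58.1 in R 4.3.3 fitted the means of 4 sublines over 19 arrays with eBayes and a trend, without CL6G52 replicate 1, and again with it, with two-sided p-values adjusted by Benjamini-Hochberg over all probe sets tested on a type. The scripts were tested on simulated data. The members and gene lists were chosen with earlier results of these data known, and 3 lists were added after values were seen. Genes named were the 10 largest called changes each way of genes read above the floor by all 9 arrays, 6 each way that were under the floor in 1 subline, and up to 5 members per list. List members beyond these were named after their values were seen. Replicate numbers did not pair the arrays. Tried as alternatives were the scaling, filters, samples in the fit, probe sets, a replicate block and each replicate left out. The result of 1 gene list is not reported here.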

Additional observations from a re-analysis of the deposited data

Results flagged for a closer look

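Of 312 groups examined in 156 genes, CL6G45 and CL6G52 replicates 2 to 5 of each, 27 held an array far from the others of its subline by Dixon's criterion, and chance alone gives about 1 in 20 groups. CL6G45 replicate 1 stood apart in log2 signal for Lef1 (4.54, nearest 5.16) and Ifitm1 (5.47, nearest 5.2). CL6G45 replicate 2 stood apart in log2 signal for Copg2 (7.97, nearest 7.78). CL6G45 replicate 4 stood apart in log2 signal for Cdh1 (7.28, nearest 7.61), Mbtps1 (9.34, nearest 9.05), Gsc (5.96, nearest 5.71), H2-D1 (5.57, nearest 5.91) and Vim (10.29, nearest 10.13). CL6G45 replicate 5 stood apart in log2 signal for Eomes (7.72, nearest 8.05), Cyp51 (8.53, nearest 8.73), Pfkp (7.71, nearest 7.30) and Mt2 (11.63, nearest 11.46). CL6G52 replicate 2 stood apart in log2 signal for Frmd4a (6.69, nearest 6.99), Ddit3 (2.62, nearest 4.88), Rdh11 (6.55, nearest 6.92), Crb3 (7.11, nearest 6.81), Tpm1 (9.01, nearest 9.30), Fdps (9.82, nearest 10.05), Thy1 (4.84, nearest 5.26) and Sdha (9.20, nearest 9.36). CL6G52 replicate 3 stood apart in log2 signal for Cyba (2.78, nearest 0.54), Shmt2 (8.27, nearest 8.44), Foxa2 (4.74, nearest 5.00), Spred2 (9.29, nearest 9.12) and Irf1 (7.27, nearest 7.79). CL6G52 replicate 4 stood apart in log2 signal for Eif2ak3 (7.52, nearest 7.74) and Id1 (6.31, nearest 6.43). With signals raised to the floor, the difference of Ddit3 was -3.21.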

How the results depend on the processing

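Including CL6G52 replicate 1 lowered the called genes from 217 to 105, with 37 higher and 68 lower, and those passing by adjusted p alone from 2423 to 1577, with 710 higher and 867 lower. Of the 217, 104 kept their call. With the deposited scaling, 181 genes were called, and 538 passed by adjusted p alone, 244 higher and 294 lower. With signals raised to the floor, 137 were called, 51 higher and 86 lower, and over 5 against 5 arrays 59, 34 of them lower. The cause of these changes was not tested. Leaving out 1 replicate at a time gave 203 to 233 called genes, 70 to 90 higher and 126 to 152 lower. By adjusted p alone it gave 2044 to 2259, 904 to 1043 higher and 1140 to 1216 lower. Over 5 against 5 arrays it gave 85 to 217, 29 to 79 higher and 55 to 138 lower. The upper ends, 217, 79 and 138, are those without CL6G52 replicate 1, and without any other replicate the highest were 109, 41 and 68. The other alternatives kept each count within 1.5 times. Equal replicate numbers did not go with equal deviations (r of -0.06 to 0.01 for MOE430A, -0.03 to 0.03 for MOE430B), and with the replicate block 208 genes were called, 196 of them among the 217. Of 3117 values of single genes under the alternatives, 0 reversed, 55 lost their call and 9 gained one. Of 1320 counts of list members, 112 moved by over 1.5 times or away from 0. Of these losses, 18 came with CL6G52 replicate 1 included and 8 with signals raised to the floor. Low signal limits the folds, since 97 of the 217 genes had a subline mean under the floor.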
